A study of Homo sapiens with 6 samples.

Results

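The IFIT and OAS families are 2 groups of interferon-stimulated antiviral genes, and their 8 members IFIT1, IFIT2, IFIT3, IFIT5, OAS1, OAS2, OAS3 and OASL were picked by gene symbol from the 16390 genes listed in the expression tables. All 8 were listed and all 8 passed the filter on low counts. RNA sequencing had been performed on SW780, a bladder cancer line of human origin that is classed as luminal. The Control group consisted of 3 SW780 libraries labelled as such, and the RC48 group of 3 libraries of RC48-exposed SW780. RC48 is disitamab vedotin, an antibody against ERBB2 that carries the microtubule poison MMAE, and the stated concentration was 25 µg/ml. The exposure time was not given in the sources used here. A single cell line was used, and the labels do not say whether the libraries of a group came from separate cultures, so the p-values below measure the spread between these libraries.

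IFIT proteins are cytoplasmic proteins built of tetratricopeptide repeats that bind viral RNA. IFIT1 recognises capped RNA that lacks the methyl mark of host messages, IFIT2 and IFIT3 assemble with it, and IFIT5 binds RNA with a triphosphate end. OAS1, OAS2 and OAS3 are enzymes that detect double-stranded RNA and make the signalling oligoadenylate 2-5A, whereas OASL lacks this enzyme activity and acts on the RNA sensor RIG-I. Interferon induces both families through ISGF3, a complex with STAT2 and IRF9 among its subunits that binds the interferon-stimulated response element (ISRE) of their promoters.

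Normalised expression was calculated as CPM, the counts of a gene relative to its library's total with TMM scaling, and RC48 was compared with Control by the quasi-likelihood test of edgeR, with Benjamini-Hochberg adjustment over all 13055 genes tested. Library totals ranged from 16453233 to 17988030 estimated counts. At an adjusted p under 0.05, 288 genes (2.21%) were called, and 258 of them (1.98%) were upregulated. The RC48 libraries were unequal in how transcripts of different GC content were represented. Ranked over 13018 genes, GC content and the ratio to the Control mean had a Spearman rho of 0.740 in RC48 replicate 1, of −0.018 in replicate 2 and of 0.577 in replicate 3. Values corrected for GC content are therefore given beside the members' results, together with those obtained without RC48 replicate 1. The same correction raised the calls over all genes to 1008 (7.74%), of which 558 (4.29%) were upregulated.

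After RC48 exposure, 5 of the 8 members were upregulated (IFIT1, IFIT3, OAS2, OAS3 and OASL), and 0 were downregulated, where 1.98% of all genes tested were upregulated. The log2 fold changes of these 5 ran from 0.76 for OAS3 to 1.48 for IFIT1. OAS1 (log2 fold change 0.53), IFIT2 (0.39) and IFIT5 (−0.03) did not pass the test. Over all 8 members the median log2 fold change was 0.87, beside 0.016 over all genes tested. It was 0.68 for the 4 IFIT genes and 0.90 for the 4 OAS genes. In 6 members the lowest RC48 library exceeded the highest Control library, a pattern seen in 17.4% of all genes tested. For each of these 6, the exact permutation test (2-sided) gave p = 0.1, the smallest that 3 libraries against 3 allow. With the correction for GC content, 7 members were upregulated and IFIT5 was not (adjusted p = 0.121 in edgeR), and the groups overlapped in none of the 8, which held for 14.1% of all genes in that direction. Without RC48 replicate 1, the same 7 were upregulated, beside 6.82% of all genes called and 4.61% upregulated. DESeq2 called 6 members as upregulated (the 5 and OAS1), beside 4.78% of all genes called and 3.45% upregulated. The calls did not hold in every setting. With limma on log2(TPM + 1) over 6 libraries, the study's kind of test, 2 members (IFIT3 and OASL) were called, beside 1.7% of all genes. In that fit the TPM of RC48 replicate 2 was computed here. Over the 5 libraries with deposited TPM, limma called 6 members, all as upregulated. Over all genes that fit called 2840 (752 upregulated and 2088 downregulated), against 209 with limma over 6 libraries. The share of all genes tested was not computed for the fit over 5 libraries, so its 6 members cannot be set beside a rate. In edgeR, 0 members were called without Control replicate 1, 2 or 3 (beside 0.537%, 0.591% and 0.515% of all genes) or without RC48 replicate 3 (0.706%). In each of these 4 fits 6 members had an unadjusted p under 0.05, and all members kept the direction of the full fit.

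**Figure D1:**
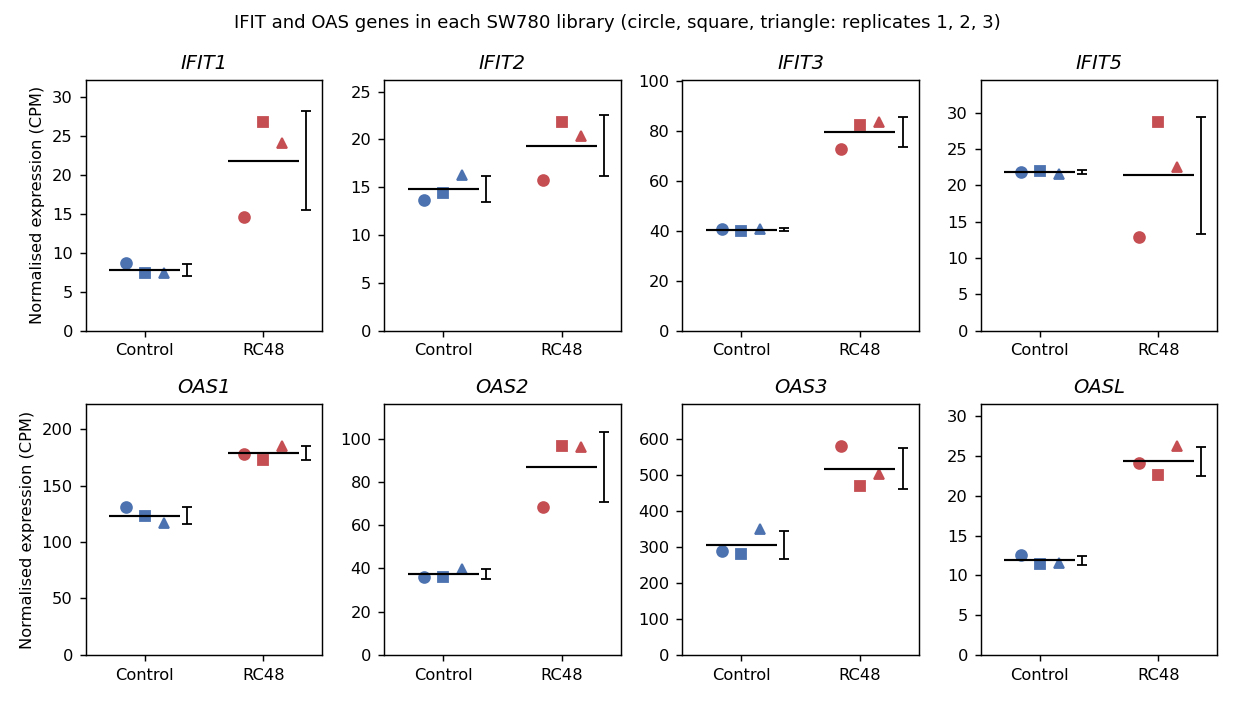
Normalised expression (CPM, linear axes from 0) of the 8 members in each Control and RC48 library. Points are libraries, with circle, square and triangle for replicates 1, 2 and 3, horizontal lines are group means and bars are SD. The groups are separated in all panels but IFIT2 and IFIT5, and RC48 replicate 1 is the lowest RC48 library in all 4 IFIT panels and in OAS2.

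The 4 IFIT genes lie on chromosome 10 within 137.3 kb of GRCh38, all on the plus strand in GENCODE v29. IFIT2 spans chr10:89283694-89309276, IFIT3 chr10:89327894-89340971, IFIT1 chr10:89392546-89406486 and IFIT5 chr10:89414586-89421001. On chromosome 12, OAS1 (chr12:112906777-112933222), OAS3 (chr12:112938352-112973249) and OAS2 (chr12:112978395-113011723) follow one another on the plus strand. OASL stands apart on the minus strand at chr12:121019111-121039242. Neighbouring genes did not take the same values: IFIT1 had the largest log2 fold change of the 8 members and the adjacent IFIT5 the smallest.

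IFIT1 was measured at 8.73, 7.36 and 7.36 CPM in Control replicates 1, 2 and 3 and at 14.6, 26.9 and 24.1 CPM in RC48 replicates 1, 2 and 3. All RC48 libraries were above all Control libraries, with replicate 1 the lowest of the 3. The mean rose from 7.82 ± 0.792 to 21.9 ± 6.43 CPM (SD, n = 3), a log2 fold change of 1.48 (SE 0.24, 95% interval 0.93 to 2.04, adjusted p = 0.0230 in edgeR). This was a 2.80-fold increase. With the GC correction it was 1.63 on the log2 scale (adjusted p = 4.5e-04 in edgeR) and 1.70 without RC48 replicate 1 (adjusted p = 2.9e-06 in edgeR). The call was lost with limma on log2(TPM + 1) (1.16, adjusted p = 0.0767) and in edgeR without Control replicate 1, 2 or 3 (adjusted p = 0.108, 0.149 and 0.187) or RC48 replicate 3 (0.130). Its close relative IFIT1B was listed with a total count of 0 in Control and 1 in RC48, and 1.03% of the 50-base words of the longest IFIT1 transcript recur in transcripts of other genes, IFIT1B among them.

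IFIT3, the partner of IFIT1, was the most abundant IFIT gene. Its level was 40.8, 39.8 and 40.6 CPM in the Control libraries and 72.8, 82.6 and 83.8 CPM in the RC48 libraries. The groups did not overlap, and the Control libraries lay within about 1 CPM of each other. The mean rose from 40.4 ± 0.540 to 79.7 ± 6.02 CPM (SD, n = 3), with a log2 fold change of 0.98 (SE 0.12, 95% interval 0.70 to 1.26, adjusted p = 0.00683 in edgeR). It was 1.07 after GC correction (adjusted p = 1.6e-04 in edgeR) and 1.03 without RC48 replicate 1. Without any one Control library or RC48 replicate 3, the adjusted p in edgeR was between 0.0700 and 0.0836, and the call was lost.

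IFIT2, which forms complexes with IFIT1 and IFIT3, gave 13.7, 14.4 and 16.3 CPM in Control and 15.8, 21.9 and 20.4 CPM in RC48. The groups overlapped, because RC48 replicate 1 was below Control replicate 3. The means were 14.8 ± 1.35 and 19.3 ± 3.17 CPM (SD, n = 3), and the log2 fold change of 0.39 (SE 0.17, 95% interval −0.00048 to 0.78) did not pass the test (adjusted p = 0.260 in edgeR). The call depended on RC48 replicate 1 and on the GC correction. When corrected for GC content, IFIT2 was at 13.1, 13.8 and 15.2 CPM in Control and 19.5, 20.1 and 21.0 CPM in RC48, without overlap, and it had a log2 fold change of 0.53 (adjusted p = 0.0154 in edgeR). Without RC48 replicate 1 it was 0.51 (adjusted p = 0.0293 in edgeR). Of the 50-base words of the longest IFIT2 transcript, 8.40% recur in other genes, the highest share among the members.

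IFIT5 was even across the Control libraries, at 21.9, 22.02 and 21.5 CPM, and uneven across the RC48 libraries, at 12.8, 28.8 and 22.5 CPM. RC48 replicate 1 lay below and replicates 2 and 3 above all Control libraries. The means were 21.8 ± 0.269 and 21.4 ± 8.04 CPM (SD, n = 3), with a log2 fold change of −0.03 (SE 0.27, 95% interval −0.65 to 0.59, adjusted p = 0.951 in edgeR). IFIT5 has the lowest GC content of the members (37.4%). After GC correction the RC48 libraries were at 20.5, 24.4 and 24.9 CPM against 19.2, 19.6 and 18.4 CPM in Control, so that the groups no longer overlapped, and the log2 fold change turned positive at 0.29 (adjusted p = 0.121 in edgeR). It was 0.23 without RC48 replicate 1 (adjusted p = 0.322 in edgeR).

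OAS2 showed the largest change of the OAS family. It was measured at 35.9, 36.2 and 40.0 CPM in Control and at 68.3, 96.7 and 96.1 CPM in RC48. All RC48 libraries exceeded all Control libraries, and RC48 replicate 1 was the lowest of its group. The mean rose from 37.4 ± 2.27 to 87.1 ± 16.3 CPM (SD, n = 3), a log2 fold change of 1.22 (SE 0.17, 95% interval 0.84 to 1.60, adjusted p = 0.0108 in edgeR), or 2.33-fold. It was 1.21 with the GC correction and 1.36 without RC48 replicate 1. The call was lost with limma on log2(TPM + 1) (1.03, adjusted p = 0.0603) and in edgeR without Control replicate 1, 2 or 3 (adjusted p = 0.0926, 0.0949 and 0.0904) or RC48 replicate 3 (0.0872).

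OASL, the member without synthetase activity, had 12.5, 11.5 and 11.6 CPM in Control and 24.1, 22.6 and 26.3 CPM in RC48. The groups were well apart and both were tight. The mean rose from 11.9 ± 0.587 to 24.3 ± 1.87 CPM (SD, n = 3), with a log2 fold change of 1.03 (SE 0.13, 95% interval 0.72 to 1.35, adjusted p = 0.00870 in edgeR). The GC-corrected value was 0.89, and without RC48 replicate 1 it was 1.03. As for IFIT3, the call was lost in edgeR without any one Control library or RC48 replicate 3 (adjusted p between 0.0815 and 0.0981).

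OAS3, the family's long form that responds to long double-stranded RNA, had the highest counts of the members. It reached 289.4, 279.2 and 350.0 CPM in Control and 581.2, 469.8 and 503.5 CPM in RC48. The groups did not overlap, and here RC48 replicate 1 was the highest library. The mean rose from 306.2 ± 38.3 to 518.2 ± 57.1 CPM (SD, n = 3), a log2 fold change of 0.76 (SE 0.14, 95% interval 0.43 to 1.08, adjusted p = 0.0390 in edgeR). It decreased to 0.54 after GC correction (adjusted p = 0.0202 in edgeR) and was 0.66 without RC48 replicate 1 (adjusted p = 0.00261 in edgeR). Limma on log2(TPM + 1) did not call OAS3 over 6 libraries (0.69, adjusted p = 0.0694), but called it over 5 libraries (0.71, adjusted p = 0.0263). It was not called in edgeR without Control replicate 1, 2 or 3 (adjusted p = 0.252, 0.249 and 0.103) or RC48 replicate 3 (0.179).

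OAS1, the short form of the synthetase, was at 130.8, 123.0 and 116.5 CPM in Control and at 178.1, 172.9 and 185.1 CPM in RC48. Every RC48 library was above every Control library. The means were 123.4 ± 7.17 and 178.7 ± 6.10 CPM (SD, n = 3), and the log2 fold change of 0.53 (SE 0.11, 95% interval 0.28 to 0.79) lay just outside the threshold (adjusted p = 0.0557 in edgeR). DESeq2 called OAS1 (log2 fold change 0.51, adjusted p = 0.00201), and so did edgeR with the GC correction (0.49, adjusted p = 0.0113) and without RC48 replicate 1 (0.53, adjusted p = 0.00582).

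**Figure D2:**
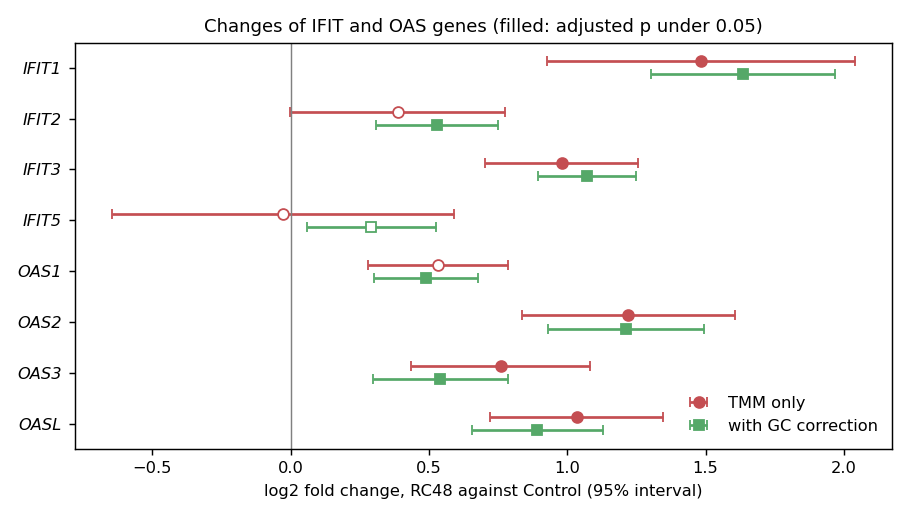
Log2 fold changes of the 8 members (RC48 against Control) with 95% intervals on the horizontal axis, from edgeR with TMM scaling alone (circles) and with the GC correction (squares). Filled symbols mark an adjusted p under 0.05. With the correction IFIT2 and OAS1 become filled, IFIT5 moves from −0.03 to 0.29 and OAS3 from 0.76 to 0.54.

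The difference between the RC48 libraries went largely with the GC content of the members. The ratio of RC48 replicate 1 to replicate 2 was 0.445 for IFIT5 (37.4% GC), 0.544 for IFIT1 (42.2%), 0.722 for IFIT2 (42.8%) and 0.882 for IFIT3 (44.3%). It was 0.706 for OAS2 (47.0%), 1.03 for OAS1 (48.2%), 1.07 for OASL (51.4%) and 1.24 for OAS3 (54.3%). Across the 8 members the Spearman rho of this ratio with GC content was 0.929, and over 13018 genes it was 0.779. All points come from the same pair of libraries, so these values describe the libraries and are no test. After the GC correction, IFIT1 (0.760), OAS2 (0.756) and IFIT5 (0.840) were still lower in replicate 1 than in replicate 2, and the other members ranged from 0.924 to 1.09.

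**Figure D3:**
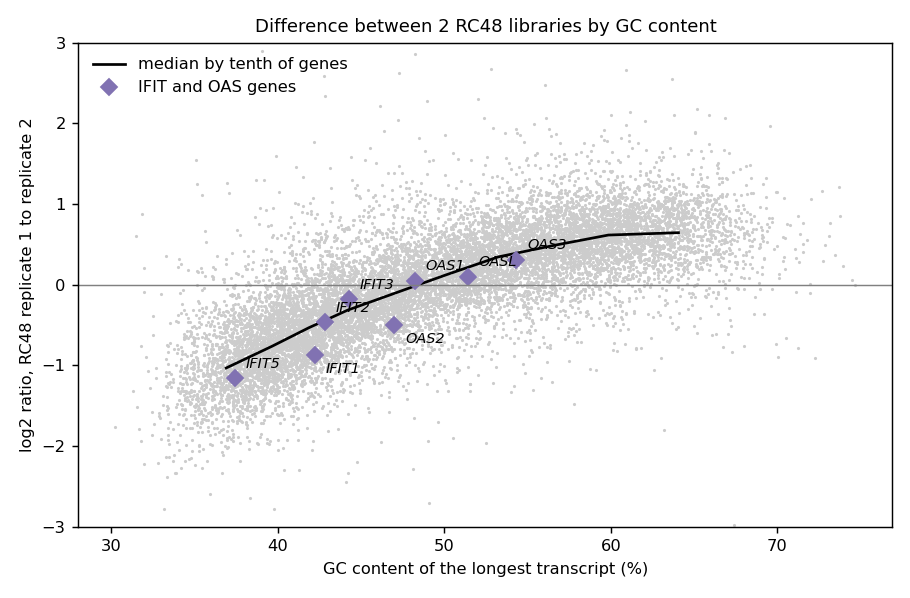
Log2 ratio of RC48 replicate 1 to RC48 replicate 2 (vertical axis) against the GC content of the longest transcript in percent (horizontal axis). Grey points are genes tested, the line joins the medians of 10 equal bins of genes by GC content, from −1.03 in the lowest to 0.65 in the highest, and diamonds are the 8 members. Most members lie near the line, IFIT1 and OAS2 lie below it, and IFIT5 is lowest and OAS3 highest.

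To compare the levels of different genes, TPM values were used, which take transcript length into account. TPM of RC48 replicate 2 was computed from its counts, and that of the other 5 libraries was as deposited. In Control, OAS1 was the most abundant member (164.6 ± 5.51 TPM, SD, n = 3), followed by OAS3 (85.8 ± 15.5), IFIT3 (34.1 ± 2.06), OAS2 (19.98 ± 2.06), OASL (11.8 ± 0.655), IFIT5 (10.3 ± 0.428), IFIT2 (8.46 ± 1.24) and IFIT1 (3.43 ± 0.290). Each member exceeded the next one in every Control library. In RC48 the first 5 kept this order, with OAS1 at 222.2 ± 17.9, OAS3 at 137.6 ± 7.30, IFIT3 at 63.6 ± 8.90, OAS2 at 42.7 ± 10.9 and OASL at 22.9 ± 1.81 TPM. The values of IFIT2 (10.5 ± 2.36), IFIT5 (9.74 ± 4.20) and IFIT1 (9.25 ± 3.20) overlapped across libraries. Within each RC48 library IFIT2 was above IFIT1, at 7.97 against 5.73, 12.6 against 11.99 and 11.01 against 10.04 TPM in replicates 1, 2 and 3. IFIT5 changed its place between libraries (5.39, 13.8 and 10.08 TPM).

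**Figure D4:**
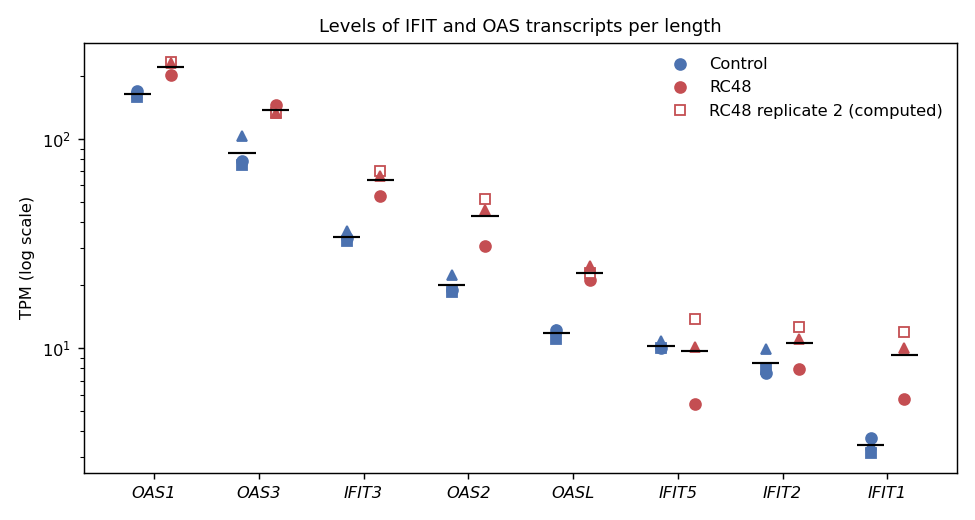
TPM (log axis) of the 8 members in the Control and RC48 libraries, ordered by the Control mean. Circle, square and triangle are replicates 1, 2 and 3, the open square is the computed TPM of RC48 replicate 2, and short lines are group means. OAS1 and OAS3 are at the top in both groups, and IFIT5, IFIT2 and IFIT1 come together in RC48.

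The summed TPM of the IFIT family went from 56.3 ± 3.70 in Control to 93.1 ± 18.6 in RC48, and that of the OAS family from 282.2 ± 20.2 to 425.4 ± 22.7 (SD, n = 3). Neither sum overlapped between the groups. Among single genes tested, 17.4% had every RC48 library above every Control library in CPM. The share of IFIT3 was 60.6% ± 0.448 in Control and 68.9% ± 4.52 in RC48, that of IFIT1 6.10% ± 0.603 and 9.72% ± 1.63, that of IFIT2 14.97% ± 1.25 and 11.3% ± 0.311, and that of IFIT5 18.3% ± 0.482 and 10.1% ± 2.62. None of these 4 shares overlapped between the groups. The shares of a family are parts of the same sum, so they are not separate results. TPM was not corrected for GC content, and IFIT5 held 7.42% in RC48 replicate 1 against 12.6% in replicate 2. Within the OAS family, OAS1 went from 58.5% ± 3.44 to 52.2% ± 1.48, OAS2 went from 7.07% ± 0.283 to 9.98% ± 2.10 and OASL from 4.20% ± 0.174 to 5.38% ± 0.266, without overlap. The share of OAS3 overlapped between the groups (30.3% ± 3.34 and 32.5% ± 3.55).

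The same was examined as the log2 ratio of CPM between 2 paralogs of a family within each library, which does not depend on library size. The RC48 minus Control difference was 1.07 for IFIT1 to IFIT2, 1.55 for IFIT1 to IFIT5 and 1.08 for IFIT3 to IFIT5, and after GC correction 1.09, 1.34 and 0.79. It was −0.60 for IFIT2 to IFIT3, and −0.54 after correction. In the OAS family it was −0.67 for OAS1 to OAS2 and −0.50 for OAS1 to OASL. For these 6 pairs the groups did not overlap with or without the GC correction, and the exact permutation test gave p = 0.1, the smallest possible. After Benjamini-Hochberg adjustment over the 12 pairs computed it was 0.171 without and 0.12 with the GC correction, so none passed 0.05. The pairs of a family share the same genes, so they are not separate results. The ratios of OAS1 to OAS3, OAS2 to OAS3, OAS2 to OASL, OAS3 to OASL and IFIT1 to IFIT3 overlapped between the groups before correction, and of these only OAS1 to OAS3 still did after it. The remaining pair, IFIT2 to IFIT5, was separated before correction (difference 0.48) and overlapped after it (0.25).

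The promoters of the members were searched for the core of the ISRE, because interferon acts on both families through it. RefSeq windows of 300 bases (250 before and 50 after a transcription start, GRCh38.p14) were matched for 5 of the 8 members, with 6 windows in all. IFIT2, OAS2 and OASL had no entry. A pair of GAAA words separated by any 2 bases, on either strand, were found in 5 of the 6 member windows and in 3.57% of all 35116 windows. They were also found in 23 of 38 windows (60.5%) of a list of other interferon-stimulated effectors. The stretches around the matches are shown as the plus strand, 5′ to 3′, with the matches in capitals (paired TTTC words are the same core read from the other strand).
IFIT1, chr10:89392487-89392549: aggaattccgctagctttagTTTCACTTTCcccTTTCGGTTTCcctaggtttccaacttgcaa
IFIT3, chr10:89327821-89327904: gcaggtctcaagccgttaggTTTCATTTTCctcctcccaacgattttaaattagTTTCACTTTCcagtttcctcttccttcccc
IFIT3, second start, chr10:89332415-89332507: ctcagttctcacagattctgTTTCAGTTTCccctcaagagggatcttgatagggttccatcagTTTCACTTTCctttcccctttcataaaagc
IFIT5, chr10:89414503-89414567: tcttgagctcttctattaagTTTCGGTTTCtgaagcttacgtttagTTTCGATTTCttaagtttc
OAS3, chr12:112938321-112938350: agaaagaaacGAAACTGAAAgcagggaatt
OAS3, chr12:112938444-112938473: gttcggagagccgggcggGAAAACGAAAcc

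In IFIT1 the matches lay at positions −116 to −107 and −103 to −94 from the start, separated by 3 bases. Those of IFIT5, which did not pass the test, lay at −45 to −36 and −19 to −10, with another match across the start itself. The 5 windows with a match thus belonged to members that were called (IFIT1, IFIT3 and OAS3) and to one that was not (IFIT5). The OAS1 window had no match to this core. It held a pair of GAAA words with a spacing of 1 base at −17 to −9. This pattern was searched only after the OAS1 sequence had been seen, and it occurs in 3.12% of all windows and in 3 of the 6 member windows (in the second IFIT3 window and in OAS3 it overlaps an ISRE match). The stretch is given with the pattern in capitals.
OAS1, chr12:112906932-112906961: cctcccttctgagGAAACGAAAccaacagc
TTC and GAA separated by any 3 bases, the letters of the GAS element, were found in the OAS1 window and in no other member window, and in 7.66% of all windows.

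The rest of the pathway was described by lists ordered by role. Of 9 interferon ligands, only IFNL1, IFNL2 and IFNL3 were listed, with 1 to 3 counts in total in each group, and none was tested. Among 12 receptor and signalling genes, all tested, 2 were upregulated and the median log2 fold change was 0.33. They were IRF9 (1.62, SE 0.18, adjusted p = 0.00446 in edgeR) and STAT2 (0.70, SE 0.12, adjusted p = 0.0346), which encode subunits of ISGF3. IRF9 was at 24.2, 24.3 and 24.97 CPM in Control and at 94.7, 61.2 and 69.8 CPM in RC48. The groups were far apart, with replicate 1 the highest. With the GC correction IRF9 had 1.36 (adjusted p = 6.8e-05 in edgeR) and STAT2 0.59 (adjusted p = 0.00710). The list's median was then 0.24, and 4 of its genes were upregulated.

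Of 5 interferon regulatory factors, IRF7 was upregulated (log2 fold change 1.44, SE 0.20, adjusted p = 0.0117 in edgeR), and the list's median was 0.53. With the GC correction IRF7 had 1.12 (adjusted p = 0.00196 in edgeR), the median was 0.24 and 2 of the 5 were upregulated. IRF7 is the factor that sustains interferon production after a first signal, and it rose from 3.22 ± 0.297 to 8.77 ± 1.66 CPM (SD, n = 3). Among 12 tested genes of RNA and DNA sensing (13 in the list), IKBKE, a kinase of the pathway below the RNA sensors, was upregulated (1.32, SE 0.19, adjusted p = 0.0128 in edgeR), and the median was 0.36. Corrected for GC content, IKBKE had 1.01 (adjusted p = 8.4e-04 in edgeR), the median was 0.21 and 4 genes were upregulated.

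Of genes linked to the metabolism of 2-5A, PDE12, which degrades it, was at 26.2, 27.4 and 28.0 CPM in Control and 20.2, 25.8 and 20.3 CPM in RC48, with a log2 fold change of −0.30 (adjusted p = 0.287 in edgeR). AKAP7, which carries a domain that can cleave 2-5A, was at 7.57, 9.27 and 7.48 CPM in Control and 2.79, 7.14 and 5.62 CPM in RC48, with −0.64 (adjusted p = 0.285). Neither gene passed the test. ABCE1, a ribosome recycling factor placed in the same list, had −0.78 (adjusted p = 0.231). These genes have a low GC content (40.9% for PDE12, 38.6% for AKAP7 and 38.4% for ABCE1). With the GC correction the log2 fold changes moved to −0.062 for PDE12 (adjusted p = 0.748 in edgeR) and −0.36 for AKAP7 (0.228), and ABCE1, at −0.52, was called as downregulated (0.0479).

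Of 30 other interferon-stimulated effectors, 29 were tested, 16 were upregulated, 0 were downregulated and 28 had a log2 fold change above 0. The median of 0.94 was close to that of the members (0.87). The largest rises were those of IFI27 (3.12, SE 0.28, adjusted p = 0.00167 in edgeR), a mitochondrial and nuclear membrane protein, and IFITM1 (2.90, SE 0.30, adjusted p = 0.00307), which blocks viral entry. IFITM1 remained low, at 0.523 ± 0.229 CPM in Control and 3.96 ± 0.362 CPM in RC48 (SD, n = 3). With the GC correction 23 effectors were upregulated, and without Control replicate 1, 2 or 3 or RC48 replicate 3 the number was 8, 8, 8 and 9. The GC-corrected median was 0.86 for the effectors and 0.72 for the members.

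**Figure D5:**
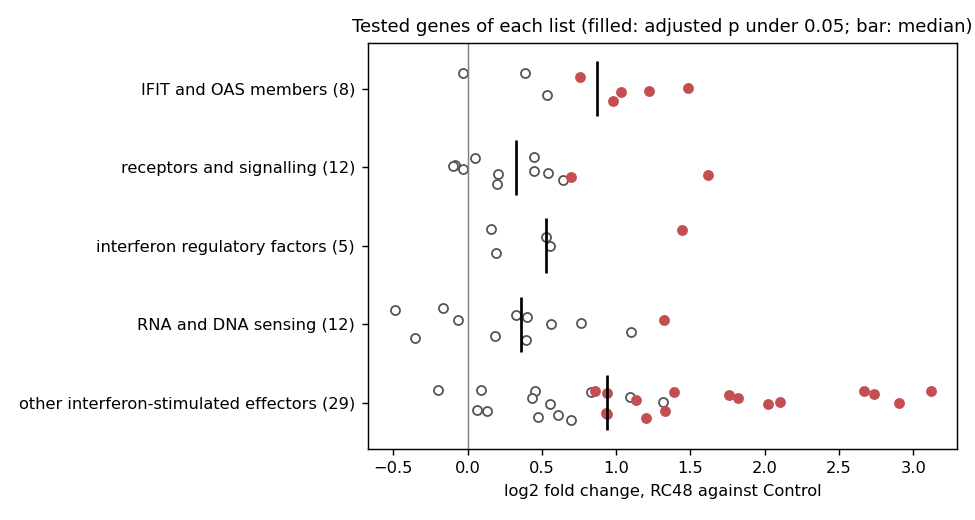
Log2 fold changes (RC48 against Control, horizontal axis) of the tested genes of the members and of 4 pathway lists, with the number tested in brackets. Each point is a gene, filled where the adjusted p in edgeR was under 0.05, and bars are list medians. The members (median 0.87) and the effectors (0.94) lie furthest to the right.

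The genes whose profiles over the 6 libraries were most like those of the members were ranked by the root mean square difference of log2 CPM, each centred on the Control mean. Nearest to IFIT1 was XAF1 (difference 0.131), itself an interferon-stimulated gene, before OLR1 (0.146) and SGK1 (0.158). Among the genes nearest to IFIT2 were PRDM1 (0.044) and COL4A1 (0.070), and IFIT3 was nearest to PIK3IP1 (0.056), TPM1 (0.062) and TMEM52B (0.075). For IFIT5 they were ZFAND5 (0.033), CALB1 (0.040) and IFI16 (0.045). The GC contents of these 3 were 39.6%, 32.2% and 38.6%, against 37.4% for IFIT5. Among other members the nearest genes included NUAK1 (54.2%, against 54.3% for OAS3), but also COL4A1 (55.4%, against 42.8% for IFIT2) and ATF5 (59.98%, against 48.2% for OAS1). The part of GC content in these likenesses was not tested. For OAS1 the nearest gene was IRF1 (0.032), followed by TAGAP (0.058) and ATF5 (0.061). IRF1 had a log2 fold change of 0.53 (adjusted p = 0.0583 in edgeR), the same to 2 decimals as OAS1. OAS2 was nearest to PSTPIP2 (0.096), SLFN5 (0.119) and TNFSF15 (0.122), OAS3 to NUAK1 (0.024), STC2 (0.066) and COL6A1 (0.070), and OASL to PIK3IP1 (0.081), AMPH (0.089) and PMEPA1 (0.098). These are descriptions over 6 libraries that share the same Control mean.

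The identity of the cells and the target of RC48 were checked beside these results. ERBB2 was at 204.9 ± 3.05 CPM in Control and 228.8 ± 46.3 CPM in RC48 (SD, n = 3, log2 fold change 0.16, adjusted p = 0.519 in edgeR). All 10 urothelial and epithelial markers were tested. Their summed level was 7000 to 7928 CPM in Control and 7360 to 8407 CPM in RC48. KRT8, KRT18 and KRT19, with Control means of 2097, 1744 and 2670 CPM, made up most of it. Of the 10, 5 had a log2 fold change above 0, and 3 had an unadjusted p under 0.05 in edgeR. KRT20 was downregulated (−1.55, adjusted p = 0.0489 in edgeR) at a low level, 1.98 CPM in Control and 0.667 in RC48. FOXA1 (−0.44, adjusted p = 0.194 in edgeR) and EPCAM (−0.49, adjusted p = 0.199) were not called, but every RC48 library was below every Control library. Of 10 leukocyte markers 8 were listed, at a summed 6.77 to 7.75 CPM in Control and 9.13 to 13.1 CPM in RC48. PTPRC, the general leukocyte marker, had 0 counts in Control and 2 in RC48. No leukocyte marker was called by edgeR (5 tested) or DESeq2 (8 tested). In edgeR all 5 had a log2 fold change above 0, and 3 of the 5 had an unadjusted p under 0.05, beside 19.1% of all genes. In DESeq2 2 of the 8 had an unadjusted p under 0.05. The summed level was 443.7 to 475.0 CPM in Control and 444.5 to 558.4 CPM in RC48 for 5 listed fibroblast markers, and 27.9 to 29.7 and 18.4 to 24.9 CPM for 4 endothelial markers. In these lists edgeR without the GC correction tested 3 fibroblast and 3 endothelial markers and called 0. Of them, 3 fibroblast markers and 1 endothelial marker had an unadjusted p under 0.05. DESeq2 called 3 fibroblast markers (2 up and 1 down) and 0 endothelial markers. With the GC correction edgeR called LUM (−0.47, adjusted p = 0.0187), PECAM1 (−0.51, adjusted p = 0.0171) and VWF (−0.82, adjusted p = 0.0192) as downregulated. CDH5 was at −0.020 (adjusted p = 0.973). COL1A1 (0.40, adjusted p = 0.0798) and COL3A1 (0.41, adjusted p = 0.119) were higher in RC48 without being called. Without the correction they had 0.74 and 0.55, and LUM had −0.86. The fibroblast sum therefore joins opposite changes. The part of these marker levels in the rise of the IFIT and OAS genes was not tested. In bulk RNA a change in the number of cells that express a gene and a change per cell cannot be told apart.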

How the data were processed

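Per the submitters' processing notes and the study's methods, reads of BGI libraries were aligned to hg38 with Bowtie2 and quantified with RSEM, and the authors deposited expected counts and TPM per gene. The annotation, tool versions and strandedness were not given in the sources used here. The expected counts were rounded to whole numbers. For RC48 replicate 2, TPM was derived here from the estimated counts, using the effective gene lengths that the counts and TPM of the other libraries imply. For RC48 replicate 3, whose TPM was deposited, the same calculation over 11982 genes gave a median absolute log2 difference of 0.0369.

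Groups were taken from the sample titles. Genes passing filterByExpr were tested with edgeR 4.0.16 (TMM, glmQLFit and glmQLFTest, R 4.3.3), in place of the study's limma on log2(TPM + 1), which served as an alternative (limma 3.58.1). DESeq2 1.42.0 was a further one, and 18 alternatives were run in all. GC content came from the longest GENCODE v29 transcript (99.6% of genes), and its loess trend (span 0.3) per library was used as an offset. The tests were checked on simulated data. Exact permutation tests used scipy 1.17.1. The members had between 125 and 9568 estimated counts per library.

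The members, lists and alternatives were chosen with earlier results of these data known. Named were all members, called genes of lists with 5 or fewer calls or otherwise the 2 largest rises and falls among the called, the 2-5A and ligand lists, ERBB2, and per member the 3 genes of at least 1 CPM with the most similar profile. IRF1, IFIT1B, KRT8, KRT18, KRT19, FOXA1, EPCAM, LUM, COL1A1, COL3A1, PECAM1, VWF and CDH5 were described after their values were seen. Some genes that this rule would name are not reported here.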

Additional observations from a re-analysis of the deposited data

How the results depend on the processing

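The 5 upregulated members and OAS1 and IFIT2 kept a positive log2 fold change in all 18 alternatives. Calls were made in 14 alternatives for IFIT3 and OASL, 12 for IFIT1, OAS2 and OAS3, 7 for OAS1, 4 for IFIT2 and 0 for IFIT5. IFIT5 turned positive with limma voom and sample weights (0.041), with the GC correction (0.29), with the replicate block and GC correction (0.29) and without RC48 replicate 1 (0.23), and ranged from −0.30 to 0.23 when a library was left out. All members called were upregulated. Their number fell from 5 to 2 with limma on log2(TPM + 1) and on log2(TPM + 0.1) over 6 libraries (IFIT3 and OASL), and lay between 0 and 7 when a library was left out. With limma on log2(TPM + 1) over 5 libraries it was 6. Without Control replicate 1, 2 or 3 or RC48 replicate 3 it was 0 in edgeR, with 6 members at an unadjusted p under 0.05 in each case and the smallest adjusted p between 0.0700 and 0.0836. In these fits the calls over all genes fell to 71, 78, 68 and 93, and the pathway lists had 9, 9, 8 and 11 called genes. Leaving out RC48 replicate 1 gave calls for 7 members, 897 genes and 36 list genes. Leaving out RC48 replicate 2 gave them for 6 members, 3726 genes and 40 list genes. These 3726 genes comprised 1862 rises and 1864 falls. Their share of the genes tested was not computed, so the 6 members are not set beside a rate.

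Over all genes, 676 were called with DESeq2, 1008 with the GC correction, 632 with the replicate block and GC correction, 2840 with limma on log2(TPM + 1) over 5 libraries and 8018 with limma voom, against 288, and between 68 and 3726 without 1 library. The upregulated among them were 488, 558, 393, 752 and 3972, against 258. Of the list genes 34, 31 and 53 were called with the GC correction, limma over 5 libraries and limma voom, and 30 with DESeq2, against 20, and between 8 and 40 without 1 library. With limma over 5 libraries the median log2 fold change of all genes was −0.11. Whether the replicate numbers pair the samples could not be told. The deviations of same-numbered libraries correlated at 0.0020, −0.132 and 0.0048, and those of different-numbered libraries between −0.112 and 0.131. The replicate block gave 331 genes, 5 members and 22 list genes. The chi-square per degree of freedom between libraries of a group was 1.498 to 12.2 for Control and 23.1 to 140.0 for RC48.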
